A study of Homo sapiens with 8 samples.

Results

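The replication-dependent histone genes lie in clusters, and 4 stretches of hg19 that hold them were examined for RBM45 binding. Cluster A is chromosome 6, 26017000 to 26285000 (268 kb), cluster B is chromosome 6, 27100000 to 27115000 (15 kb), cluster C is chromosome 6, 27775000 to 27870000 (95 kb) and cluster D is chromosome 1, 149754000 to 149860000 (106 kb). Every peak that shared at least 1 base with one of these 484 kb, on either strand, was a member. There were 4 such peaks among 276465: 3 of the 210878 peak entries of the first CLIP replicate, 1 of the 65587 of the second, and 0 of the 13758 peak pairs shared by both.

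The study asked where RBM45, an RNA-binding protein, sits on RNA and whether its binding depends on m6A. The libraries came from HEK293T, a human cell line derived from embryonic kidney, either wild type (WT) or with METTL3 knocked out (Mettl3 KO). METTL3 is the catalytic subunit of the complex that writes most m6A on messenger RNA. All groups, WT included, carried a lentivirus for human RBM45 with a FLAG-HA tag and had been cross-linked at 254 nm with a UV dose of 300 mJ/cm2. The tagged protein was pulled down with an antibody to HA (CLIP), and a size-matched input was made in parallel without antibody. The 8 samples form 4 groups of 2 replicates: WT input, WT CLIP, KO input and KO CLIP. The values below are those of the 2 WT CLIP replicates, because the peak lists are theirs; KO libraries were not used here, and input libraries not on their own. Whether the caller took the WT input as the background of the listed folds is not stated. The labels name neither the promoter that drives the tagged protein nor separate cultures for the replicates, so the spread between the 2 may be technical.

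Replication-dependent histone genes code for the core histones H2A, H2B, H3 and H4 and the linker histone H1, which package DNA as it is copied. Their messenger RNAs are made mainly in S phase, mostly lack introns, and end in a conserved stem-loop in place of a poly(A) tail. The stem-loop is bound by SLBP, the stem-loop binding protein, which acts in processing, export, translation and decay of these RNAs. m6A on messenger RNA is known to gather near stop codons and in long exons, and RBM45 is known as a mostly nuclear protein.

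The stem-loop is shown because it marks the class. The known consensus of the histone stem-loop was searched in the transcripts of the 66 HIST1 and HIST2 genes, the symbols that GENCODE v29 uses for the histone genes of chromosomes 6 and 1, on the transcript strand only. It was found in 26 of them, against 41 of 19874 other protein-coding genes (0.206%). In 25 the 6 bases of both arms paired exactly, in 5 forms, which are written here as DNA with the 4-base loop in capitals.
Form 1: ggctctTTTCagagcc
Form 2: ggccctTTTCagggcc
Form 3: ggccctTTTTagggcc
Form 4: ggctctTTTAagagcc
Form 5: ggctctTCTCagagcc
Form 1 stood in 15 genes, among them HIST1H2AC and HIST2H2BE. Forms 2 and 3 stood in H4 genes: form 2 in HIST1H4B, HIST1H4E, HIST1H4H and HIST1H4J, and form 3 in HIST2H4A, HIST2H4B and HIST1H4I. Form 4 was found in HIST1H2BF and HIST1H3G, and form 5 in HIST1H3E. Not all matches stood at the end of the annotated transcript. Form 1 lay 1 to 1729 bases before the end, form 2 6 to 1022 and form 3 194 to 690. Form 4 lay 732 to 1518 bases before the end, and form 5 lay 5. Any of the 5 forms occurred in 5 of the 19874 other genes (0.0252%). The forms were taken from the histone transcripts, so exactly paired forms present only in other genes are not in this count. A missing match says only that the letters are not in that model. Of the 66 models, 45 have a length that is a multiple of 3, as models of the coding sequence alone do. Such a length does not show a coding-only model, since HIST2H3C and HIST1H4B have it and carry a form.

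By gene order, the histone genes stood in runs that few other genes broke. On chromosome 6, 9 histone genes from HIST1H1A to HIST1H1C were followed by HFE, a regulator of iron uptake, then by 8 from HIST1H4C to HIST1H4D and, past the model AL031777.3, by 15 from HIST1H3D to HIST1H4H. Further runs of 5 (HIST1H2BJ to HIST1H2AH) and 16 (HIST1H2BL to HIST1H2BO) came before PRSS16 and OR2B2. A run of 11 on chromosome 1 (HIST2H2BF to HIST2H2AB) lay between FCGR1A, an antibody receptor of myeloid cells, and BOLA1. The remaining 2, HIST1H2AA and HIST1H2BA, lay apart from these between SCGN and SLC17A4. This order comes from an annotation of GRCh38. Which gene, exon or untranslated region holds each hg19 peak was not analysed here.

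WT CLIP peaks were sparse in the histone clusters. Replicate 1 listed 2 entries in cluster A, 1 in cluster C and none in clusters B and D. Replicate 2 listed 1 entry in cluster A and none in the other three. Together this was 0.620 entries per 100 kb in replicate 1 and 0.207 in replicate 2. At the density of the whole list between the first and last peak of each chromosome (7.18 and 2.24 per 100 kb), the same length would have held 34.7 and 10.8 entries.

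The flanks of 500 kb on each side, outside the clusters, held more. Over their 3475 kb they carried 159 entries in replicate 1 (4.58 per 100 kb) and 54 in replicate 2 (1.55 per 100 kb). The clusters therefore had 0.135 times the density of their flanks in replicate 1 (95% exact interval 0.0276 to 0.403) and 0.133 times in replicate 2 (0.00331 to 0.773). Both intervals lie below 1. The ratios rest on 3 entries in the clusters in replicate 1 and 1 in replicate 2. Their near equality therefore says little about how well the replicates match. The intervals are exact for a ratio of 2 counts and cover counting error only. Neighbouring peaks of a library are not independent, so the intervals are too narrow.

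**Figure D1:**
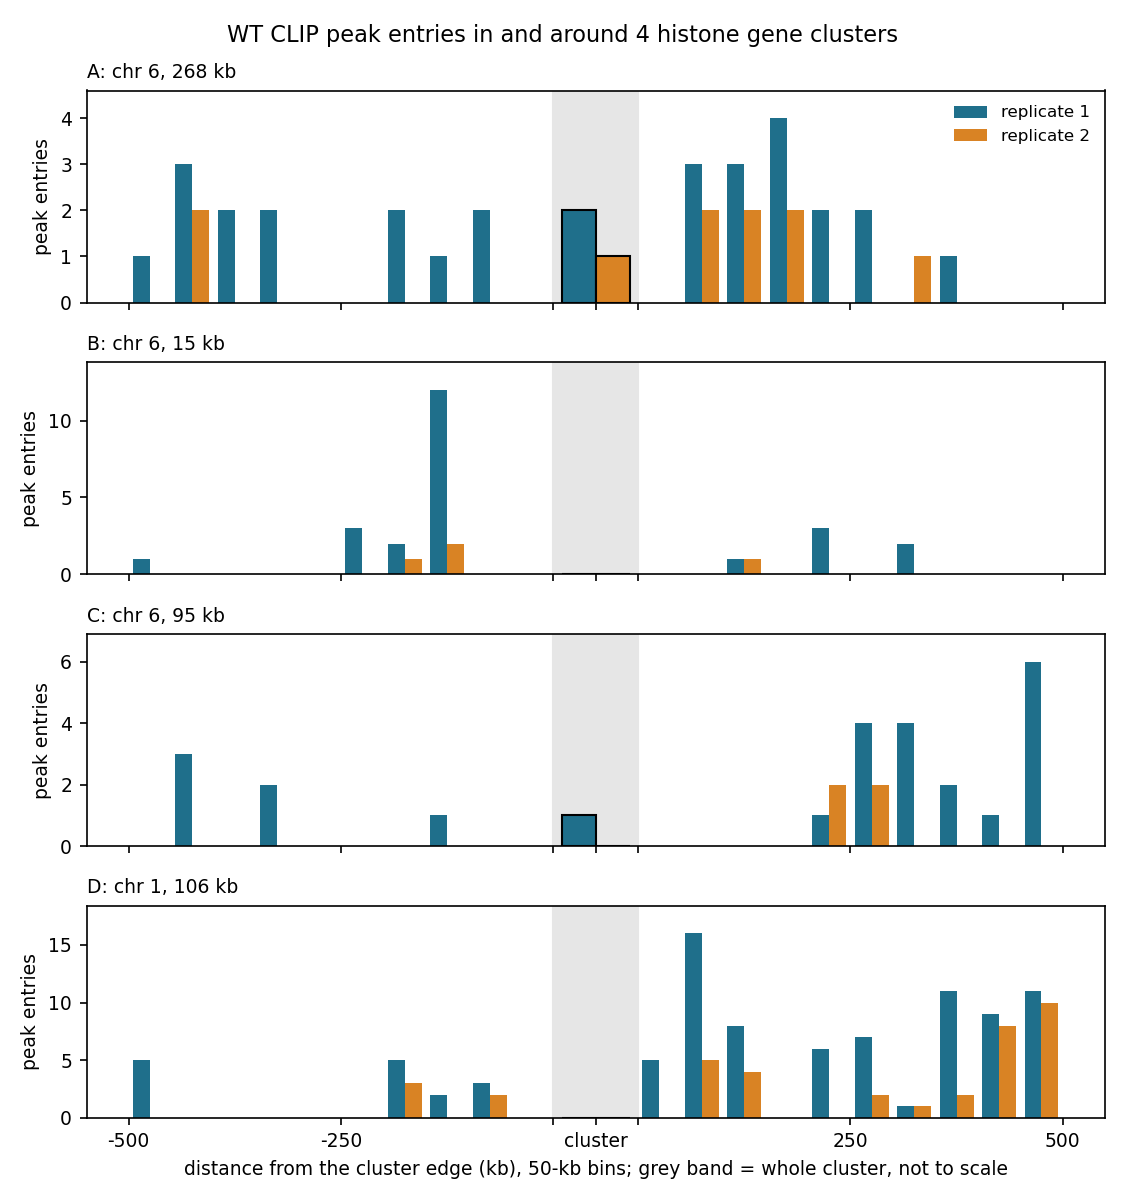
Numbers of WT CLIP peak entries (y axis) in 50-kb bins of distance from the edge of each histone cluster (x axis, kb), with 1 panel for each cluster and 1 colour for each replicate; outlined bars in the grey band count the whole cluster, which is not drawn to scale. Clusters B and D have no bar in the band, and the side above cluster D holds the most entries.

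The sides of the clusters were themselves uneven. Facing sides of clusters A and B, and of B and C, overlap in part. An entry there can count for more than 1 side and in the flanks of more than 1 cluster. In replicate 1 the 500 kb above cluster D held 74 entries (14.8 per 100 kb), while the other sides held 6 to 18 (1.2 to 3.6 per 100 kb). In replicate 2 the same side held 32 entries and the others 0 to 7. The plus strand carried 65.4% of the flank entries in replicate 1 and 75.9% in replicate 2. By strand, the ratio in replicate 1 was 0.138 on the plus strand (interval 0.0165 to 0.511) and 0.131 on the minus strand (0.00325 to 0.758). In replicate 2 it was 0.175 on the plus strand (0.00433 to 1.03), and the minus strand of the clusters held none against 13 in the flanks.

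Much of the low ratio rests on cluster D. In replicate 1 cluster D held 0 entries and its flanks 89, a ratio of 0 with an upper bound of 0.399; in replicate 2 it held 0 against 37, with an upper bound of 0.989. Taken by itself, by the rule that a count of 0 allows up to 3, the cluster could hold up to 2.83 entries per 100 kb; the bounds of the ratio are exact intervals and also carry the counting error of the flanks. The 3 clusters of chromosome 6 alone had a ratio of 0.281 in replicate 1 (interval 0.0565 to 0.854), from 3 entries against 70. In replicate 2 the ratio on chromosome 6 was 0.385, from 1 against 17, and its interval of 0.00922 to 2.46 holds 1. Cluster A alone had a ratio of 0.267 in replicate 1 (0.0308 to 1.06) and 0.415 in replicate 2 (0.00946 to 2.99). Cluster C had 0.439 in replicate 1 (0.0107 to 2.69), and cluster B, at 15 kb, is too short for a count of 0 to be told from its flanks (upper bound 11.1 in replicate 1). For clusters A, B and C taken one by one, a lower density than the flanks was not detectable at this number of peaks.

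**Figure D2:**
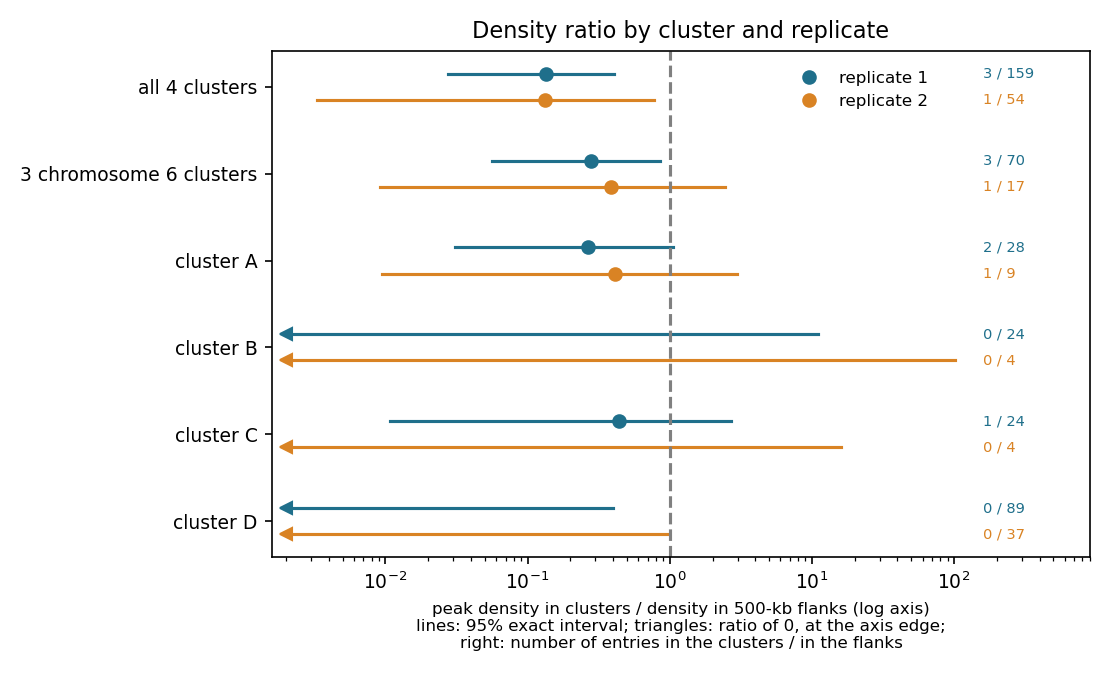
Ratio of peak density in the histone clusters to that in their 500-kb flanks (x axis, log scale) for all clusters, for those of chromosome 6 and for each cluster, with 95% exact intervals as lines and the 2 replicates in separate colours. For all 4 clusters the ratios are 0.135 and 0.133, and cluster D has no entry in either replicate.

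Peaks are patchy across the genome, so a stretch with few entries is not rare in itself. Of 10949 windows of 268 kb laid end to end over 23 chromosomes (the autosomes and X), 35.5% held at most 2 replicate 1 entries, the number in cluster A, and the median window held 8. In replicate 2 the median window of 268 kb held 1 entry, the number in cluster A, and 54.7% held at most 1. Of windows of 106 kb, 41.8% held none in replicate 1, like cluster D, and 61.7% held none in replicate 2. Of windows of 95 kb, 50.3% held at most 1 in replicate 1, like cluster C, and of windows of 15 kb, 69.6% held none, like cluster B. In replicate 2, 63.4% of windows of 95 kb and 86.1% of windows of 15 kb held none, like clusters C and B. These windows include stretches without genes and assembly gaps.

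The annotated histone transcripts are short. Of the 66 histone transcripts, 62 had 1 exon (93.9%), against 6.35% of other protein-coding genes. Their median length was 434 bases (interquartile range 393 to 709), against 2430 bases for the others (1470 to 4000). All 66 add up to 47.4 kb, and the clusters span 484 kb. The sum is not the length transcribed inside the clusters. It includes HIST1H2AA and HIST1H2BA, which lay apart from the other runs, and many models that may hold coding sequence alone. The part of gene length in the low peak number was not tested.

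The member with the lowest fold enrichment was a replicate 1 peak on the plus strand of cluster A, chromosome 6, 26156593 to 26156622. Fold enrichment is the caller's ratio of the read pileup to its background, here matched by a ratio with 1 added to both, and −log10 p is the caller's unadjusted value. The fold was 1.73 and the −log10 p 7.24. The other replicate 1 peak of cluster A, minus strand, 26027300 to 26027349, had a fold of 2.33 and a −log10 p of 5.13. The replicate 1 peak of cluster C, plus strand, 27776411 to 27776440, had 2.1 and 8.87. The only replicate 2 member lay on the plus strand of cluster A, 26022093 to 26022122, with a fold of 3.78 and a −log10 p of 6.61. One of the 4 was 50 bases wide and the other three 30 bases, the shortest width in either list.

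In replicate 1 the members paired a low fold with a high −log10 p. Only 0.113%, 0.652% and 3.81% of that list had a lower fold than the peaks at 26156593, 27776411 and 26027300, yet 88.9%, 93.9% and 73.4% had a lower −log10 p. Entries of like strength (−log10 p within 0.5) had median folds of 3.9 to 5.79, and at most 0.317% of them had a fold below that of the histone peak they were matched to. The replicate 2 member was less extreme: 48.0% of its list had a lower fold, and 7.74% of the entries of like strength. As a description, the median fold was 2.1 in the clusters of replicate 1, 3.12 in the flanks (interquartile range 2.59 to 4.0) and 3.12 in the whole list. In replicate 2 the flanks had a median of 3.97 and the whole list 3.81.

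The 2 values of a peak together give the reads behind it. In replicate 1, 99.98% of entries had a fold and a −log10 p that a whole number of reads explains to within 0.0005 in −log10 p, if fold is the pileup plus 1 over the background plus 1, and p is the Poisson chance of more reads than the pileup. In replicate 2 this held for 99.96% of entries once each read counted as 0.746. Of the matched entries, 99.89% and 99.75% allowed 1 solution only. Pileup and background below are the values implied in this way. Pileup is given in reads, and background on the caller's own scale, which need not be reads.

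The 3 replicate 1 peaks in the histone clusters had a high implied pileup and a high implied background for that list. The implied pileup was 107 reads over a background of 61.6 at 26156593, 76 over 35.7 at 27776411 and 29 over 11.9 at 26027300. The median entry of that list had a pileup of 5 over a background of 0.511. Of the 210841 matched entries, 260 had a pileup of at least 107 and 202 a background of at least 61.6; for the cluster C peak these numbers were 362 and 266. The peak with 29 reads ranked lower, with 2550 entries at or above its pileup and 1174 at or above its background.

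The flanks did not reach the levels of the peaks at 26156593 and 27776411. Their 159 entries in replicate 1 had a median pileup of 7 reads (at most 40) and a median background of 0.992 (at most 17.8). The peaks at 26156593 and 27776411 thus lay above every flank entry on both values, while the third lay within the flank range. In replicate 2 the member had 24 reads, a scaled pileup of 17.9, over a background of 4.0. The flank median there was 11.5 reads, with a highest value of 52, so this member lay within the range of its flanks.

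**Figure D3:**
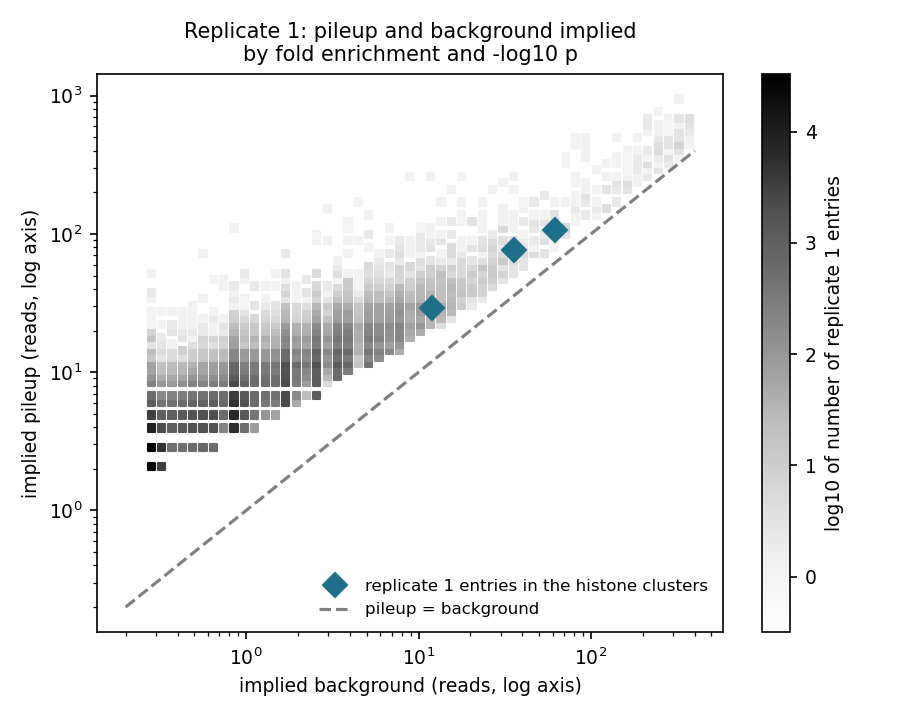
Implied pileup (y axis, reads, log scale) against implied background (x axis, log scale) for replicate 1. The x axis is labelled as reads, but background is on the caller's own scale. Grey squares hold at least 1 entry and are darker for more. The 3 entries in the histone clusters are diamonds, and a dashed line marks where pileup and background are equal. The 29 entries beyond the drawn range are left out. The diamonds lie to the right of most entries, at backgrounds of 11.9, 35.7 and 61.6, within the range of pileups listed at such backgrounds.

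Part of the backgrounds were whole multiples of a fixed step. In replicate 1, 34.4% of matched entries had the most common background, 0.282, and 26.4% had whole multiples of 0.811, to within 0.002 of a step. In replicate 2 the most common background was 0.241, and 32.7% had whole multiples of 1. The histone peaks at 26156593 and 27776411 stood at 76 and 44 such steps and the replicate 2 member at 4, while the peak at 26027300, at 14.7, was not at a whole step. Which library or window supplied this background is not stated, and it may be the size-matched input.

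High background was not particular to the histone peaks, and part of such peaks recurred. In the replicate 1 list 1174 entries had a background of at least 11.9 (0.557% of the matched entries), and 2 of them lay in the flanks. The median fold of the 1174 was 2.18 (interquartile range 1.82 to 2.74), and the histone peaks had 1.73 to 2.33. The cut-off of 11.9 is the lowest background of the histone peaks, and background is computed from fold and −log10 p. The likeness of the folds is therefore no separate result. Of these 1174 entries, 482 overlapped a replicate 2 entry on the same strand (41.1%), against 8.88% of the whole replicate 1 list. The 3 histone peaks are among the 1174 and are not among the 482. With 3 peaks, a share of 0 cannot be told from 41.1%.

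No histone peak was found in both replicates. By an overlap of at least 1 base on the strand, 0 of the 3 replicate 1 members and 0 of the 1 replicate 2 member overlapped the other list. Over the whole lists 8.88% of replicate 1 and 28.8% of replicate 2 entries did, and in the flanks 18 of 159 (11.3%, exact interval 6.85 to 17.3) and 18 of 54 (33.3%, 21.1 to 47.5). With so few members the share in the clusters could be anything up to 70.8% in replicate 1 and 97.5% in replicate 2. The authors' count table, which was built on the shared pairs, likewise had 0 of its 13758 regions in the clusters, while 15 shared pairs lay in the flanks.

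The members were isolated on their strand. With so few entries in and beside the clusters, long gaps follow, so this is no separate trait. Gaps were not computed for the flank entries. The nearest other entry of the same list and strand was 155, 190 and 115 kb from the replicate 1 peaks at 26027300, 26156593 and 27776411, and 348 kb from the replicate 2 peak. In the whole lists the median was 0.805 kb in replicate 1 and 1.39 kb in replicate 2, and 0.542% and 3.05% of entries were over 100 kb from the next. The nearest replicate 2 entry on the strand was 895, 134 and 350 kb from the 3 replicate 1 peaks. The replicate 2 member and the peak at 26027300 lay 5.18 kb apart but on opposite strands.

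The replicate 1 entries nearest to the edges of the clusters had implied pileups of 2 to 14 reads. Nearest to cluster A in replicate 1 were a plus-strand peak 50.5 kb below it (25966517 to 25966546, fold 3.07, pileup 3) and one 89.4 kb above it (26374420 to 26374453, fold 9.47, pileup 14). Nearest to cluster D were peaks 92.3 kb below (149661666 to 149661695, fold 2.76, pileup 4) and 14.9 kb above (149874860 to 149874933, minus strand, fold 2.76, pileup 4). Cluster C had no replicate 1 entry for 113 kb below and 233 kb above, and cluster B none for 112 kb below and 108 kb above. The replicate 1 peaks in the clusters had 29 to 107.

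The shared pair nearest to any cluster was 99.1 kb above cluster A, plus strand, 26384092 to 26384121, with a fold of 4.98 in replicate 1 and 4.12 in replicate 2. A pair 113 kb above cluster D, minus strand, 149972513 to 149972543, had 4.54 and 5.35. A pair 124 kb below cluster B, plus strand, 26975574 to 26975605, had 4.2 and 5.1, and one 256 kb above cluster C, plus strand, 28126399 to 28126429, had 2.81 and 2.26. Below cluster D a pair 169 kb away, plus strand, 149585015 to 149585046, reached 8.78 and 6.3. Below cluster A the nearest was 906 kb away, beyond its flank (minus strand, 25110553 to 25110583, 6.63 and 5.01).

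The second nearest pairs had folds in the same range. Above cluster A this was 26429995 to 26430024, plus strand, 145 kb away, with 3.36 and 3.32. Above cluster D it was 150111897 to 150111927, plus strand, 252 kb away, with 7.29 and 5.72, and below it 149584844 to 149584873, plus strand, 169 kb away, with 3.66 and 3.81. Beyond the flanks lay 24719356 to 24719386 below cluster A (minus strand, 3.47 and 5.16) and 28884728 to 28884757 above cluster C (minus strand, 4.71 and 6.03).

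Histone genes have near-identical copies, so reads from them may match several places. A 30-base stretch, the width of the shortest peaks, was called shared if the transcript of another gene held it, with 1 transcript per gene. For each of the 4 core families, 1 of the stretches carried by the most members is shown.
H2A: agtacctgaccgccgagatcctggagctgg
H2B: aacaagcgctcgaccatcacctccagggag
H3: aagaagccgcaccgctaccggcccggcacc
H4: acgccaagcgcaagacggtcaccgccatgg
The H2A stretch stood in 6 of 16 genes of its family, the H2B stretch in 8 of 17, the H3 stretch in 3 of 13 and the H4 stretch in 4 of 14.

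The HIST2 genes of chromosome 1 shared the most sequence. There the median gene had 86.6% of its stretches in another gene, and 8 of 11 genes had more than 50%. In the HIST1 genes of chromosome 6 the median was 6.17% (interquartile range 1.08 to 25.6), and 8 of 55 had more than 50%. Other protein-coding genes had a median of 0.0800%, and 9.20% of them had more than 50%. By family, the H1 genes shared least (at most 2.15%), with medians of 3.46% in H4, 8.12% in H3, 17.5% in H2B and 20.6% in H2A. HIST2H3C, HIST2H3A, HIST2H4A, HIST2H2AA3, HIST1H3D and HIST1H4K shared every stretch. How reads with several matches were treated is not stated, and the part of shared sequence in the low peak numbers was not tested.

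**Figure D4:**
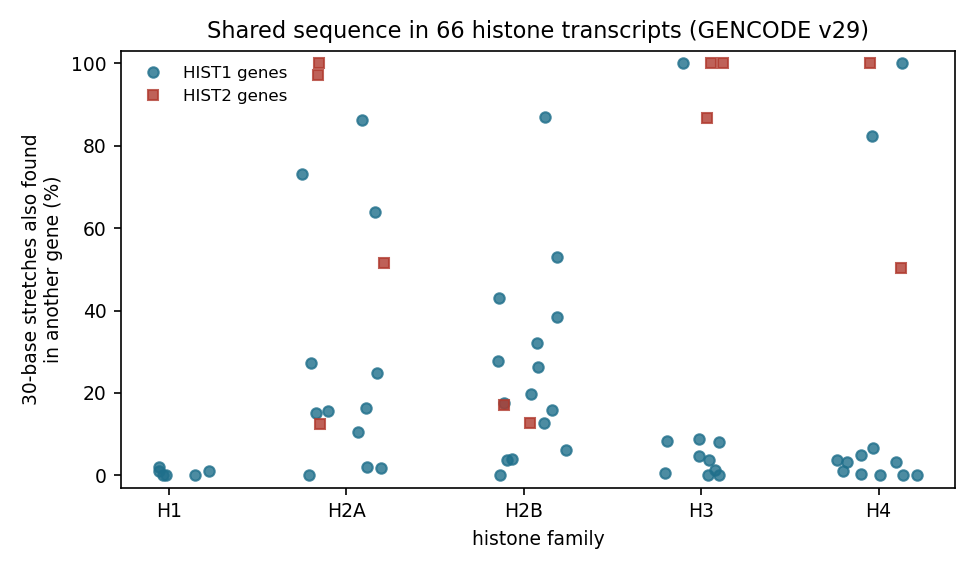
Share of 30-base stretches of each histone transcript that also occur in the transcript of another gene (y axis, percent) by histone family (x axis); each point is 1 of the 66 genes, round for HIST1 and square for HIST2, spread sideways for visibility. Most HIST1 genes lie low, with a median of 6.17%, while the HIST2 genes have a median of 86.6%.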

How the data were processed

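The peak lists of the 2 WT CLIP libraries and the list of pairs were used. Per the submitters' processing notes, the build was hg19, and deepTools 3.2.1, HOMER 4.11.1, bedtools 2.25.0, MACS2 2.1.1.20160309 and Novoalign 3.09.00 were among the tools. The deposited lists give for each peak a fold enrichment (ratio), a −log10 p and a score that is the whole part of 10 times that −log10 p; the peak names carry a p threshold of 0.005 and the library. The 8 columns of the authors' count table (featureCounts 1.6.3, per the file headers) carry names found in no label and were left aside, so the planned edgeR test was not run and library depth is unknown. Rows that repeat a peak on its strand were merged (467329 rows to 210878 entries and 148958 to 65587). Named peaks were all members and the 2 nearest shared pairs outside each edge, plus the nearest entries, chosen after their values were seen. Histone transcripts came from GENCODE v29 (GRCh38, no coordinates used), with the lowest-numbered protein-coding transcript of each gene. The clusters and members were chosen with earlier results of these data known, and the implied pileups, the windows and the transcript comparison were chosen after seeing the data. Intervals are 95% exact (Clopper-Pearson). Counts were checked against bedtools on the real lists. The exact interval of the ratio and the implied values were tested on simulated data. Computation used scipy 1.17.1, pandas 2.3.3 and numpy 2.4.6 under Python 3.11.15, with matplotlib 3.10.9 for plots. Alternatives were other flank lengths, strand ignored, peak midpoints, the stronger 50% of each list, each cluster or replicate left out, and stricter overlap.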

Additional observations from a re-analysis of the deposited data

How the results depend on the processing

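Of the values recomputed under other settings, 22 were counted as kept, 6 as moved and 0 as reversed. For the density ratio, kept meant within the spread between replicates, and for the counts of each replicate within 1.5 times. The other values had rules of their own. The shared pairs and the stricter overlap, at 0 throughout, were counted as kept without a rule. Leaving out 1 replicate could not move the ratio beyond that spread. The 22 is therefore no measure of stability. The ratio of cluster to flank density, 0.134 as the geometric mean of both replicates, was 0.152 with flanks of 250 kb, 0.112 with flanks of 1000 kb, 0.132 without cluster B, 0.122 without cluster C, 0.257 in the stronger 50% of each list and 0.329 without cluster D. It stayed below 1 in each of these. All 3 and 1 members are in the stronger 50%, while flank entries are lost there, and the flanks of cluster D hold the most entries. Without replicate 1 or 2 the ratio was 0.133 or 0.135, which is the ratio of the other replicate alone. Without cluster A no mean could be formed, because replicate 2 then had no entry; replicate 1 gave 0.0933. The mean rests on 4 peaks. At a tolerance of 0.0001, chosen after seeing the data, whole pileups matched 99.92% and 98.75% of entries. No paired analysis was possible because the density ratio comes from peak lists of 1 group and from no test across samples.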
